A study of Mus musculus with 18 samples.

Results

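Dbp, Tef, Hlf, Nfil3, Usp2, Rora, Bhlhe41, Bhlhe40 and Por are genes through which the circadian clock of the liver reaches its output. These 9 genes were taken by symbol from the 54838 genes of the expression table and were followed through 6 groups of 3 mouse samples. Levels are in TPM, scaled to transcript length and library size. In wild type (WT) mice, Dbp ranged from 20.4 to 122 TPM in livers without tumour and from 42.4 to 87.8 TPM in tumours. In mice without the miR-181ab1 cluster it ranged from 2.35 to 87.1 TPM in livers without tumour and from 120 to 256 TPM in tumours. Between tumours of both genotypes 6 of the 9 genes did not overlap, against 14.7% of all genes, but none passed a test adjusted over all genes, which 0.0215% of genes did. Rora was the only one of the 9 genes that passed this test in any comparison. It was higher in WT tumours than in WT non-tumour liver, where 4.23% of all genes passed, and lost the call in 5 of 12 alternative runs.

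All mice were of strain C57BL/6 and 36 weeks old. GKO mice lack the miR-181ab1 cluster, with Mir181a-1 and Mir181b-1, in every cell of the body, and the study's methods describe WT controls as Cre-negative flox littermates or littermates carrying Cre only. The normal liver groups, WT normal and GKO normal, were untreated. The other 4 groups came from mice that had received a single intraperitoneal dose of 25 mg/kg diethylnitrosamine (DEN), a liver carcinogen, at postnatal day 12: tumours (WT tumour, GKO tumour) and liver tissue outside the tumours (WT non-tumour, GKO non-tumour). The time of day at which tissue was taken is not given in the sources used here, nor is the mouse each sample came from, so p-values measure the spread between these samples only. Clock genes vary with the time of day, so genotype and time of collection cannot be told apart in these comparisons.

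Clock genes are transcribed in a daily rhythm in hepatocytes. CLOCK and BMAL1 (encoded by Arntl) bind E-boxes and drive Dbp, Per and Cry genes and the Rev-erb genes Nr1d1 and Nr1d2, whereas Rev-erb and ROR nuclear receptors compete at RORE elements of Arntl and Nfil3. The PAR bZIP activators DBP, TEF and HLF and the repressor NFIL3 bind the same D-box element, and through it the clock reaches detoxification and bile acid genes.

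In mm10, annotated with GENCODE M21, Dbp (ENSMUSG00000059824) lies at chr7:45705088-45710203 and Tef (ENSMUSG00000022389) at chr15:81802421-81826863, both on the plus strand. Hlf (ENSMUSG00000003949) lies at chr11:90336536-90390895 and Nfil3 (ENSMUSG00000056749) at chr13:52967209-52981073, both on the minus strand, and Rora (ENSMUSG00000032238) spans chr9:68653786-69388246 on the plus strand. All 9 are protein-coding genes and values are summed over their exons.

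The deleted microRNAs are shown first, since the knockout is the study's intervention, with the seed (bases 2 to 8) in capitals. RefSeq places them on the plus strand of GRCm38.p6 at chr1:137966468-137966490 and chr1:137966650-137966673.
mmu-miR-181a-5p: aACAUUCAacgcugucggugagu
mmu-miR-181b-5p: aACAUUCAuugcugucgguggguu
Their seeds are identical, and the matching site in a 3′ UTR reads TGAATGT, or TGAATGTA for an 8mer. In the longest 3′ UTR of each gene in GENCODE M21, no such site was found in Dbp, Tef, Nfil3, Usp2 or Por. Hlf and Bhlhe40 each held 1 8mer, Bhlhe41 held 1 7mer and Rora held 4 7mers in a 3′ UTR of 9285 bases. Among 11760 genes tested between tumours, 2069 (17.6%) held at least 1 site. Both 8mers are given with their flanks, the site in capitals.
Hlf, from base 1388 of the 3′ UTR: aaaaaaaaTGAATGTAaaagac
Bhlhe40, from base 1267 of the 3′ UTR: gaaaaaaaTGAATGTAtttctg
A match is a description of letters and not evidence of a working site. Other forms of site were not searched. The study itself names Tef among its candidate miR-181 targets, drawn from listed targets and raised in knockout tumours by its own analysis. It also filtered for lower levels in WT tumours than in non-tumour liver, and in the human tumour subclass with higher miR-181. In the fits here, Tef was called neither between the tumours nor between WT tumours and WT non-tumour liver (limma, adjusted p = 0.374 and 0.349). The loci themselves could not be checked with these libraries, in which Mir181b-1 was listed at 0 TPM in all 18 samples and Mir181a-1 in 17 of 18, GKO tumour 3 being listed at 1.40 TPM.

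Promoter windows from RefSeq (250 bases before the start of a gene to 50 after it) were found for 8 of the 9 genes and are printed for the 3 genes with a clock motif. Searched on both strands were the E-box CACGTG, the D-box TTATGTAA or TTACGTAA, and the RORE TAGGTCA or TGGGTCA. Both Tef starts and Bhlhe41 held an E-box, Nfil3 held a RORE on the minus strand of the gene, and no window of Dbp, Hlf, Usp2, Rora or Por held any of them. Of 32851 promoters, 7.15% held the E-box, 1.06% the D-box and 6.45% the RORE. The motif is in capitals, at 127 and 138 bases before the start in Tef, at 153 in Bhlhe41 and at 12 in Nfil3. The windows are Tef on the plus strand of GRCm38.p6 at chr15:81802423-81802722 and chr15:81811164-81811463, Bhlhe41 on the minus strand at chr6:145865371-145865670 and Nfil3 on the minus strand at chr13:52980990-52981289.
Tef, upstream start: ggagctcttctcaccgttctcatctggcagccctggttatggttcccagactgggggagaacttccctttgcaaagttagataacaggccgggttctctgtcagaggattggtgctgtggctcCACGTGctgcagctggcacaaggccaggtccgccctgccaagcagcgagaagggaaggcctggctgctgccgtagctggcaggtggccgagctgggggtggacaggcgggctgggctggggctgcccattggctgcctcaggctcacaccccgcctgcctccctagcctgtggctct
Tef, downstream start: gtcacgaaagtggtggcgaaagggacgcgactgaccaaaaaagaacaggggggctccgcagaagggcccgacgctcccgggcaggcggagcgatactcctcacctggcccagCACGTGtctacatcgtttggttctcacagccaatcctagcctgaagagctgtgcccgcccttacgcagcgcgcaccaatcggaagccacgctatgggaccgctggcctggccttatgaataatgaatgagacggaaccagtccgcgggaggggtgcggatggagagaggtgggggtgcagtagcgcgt
Bhlhe41: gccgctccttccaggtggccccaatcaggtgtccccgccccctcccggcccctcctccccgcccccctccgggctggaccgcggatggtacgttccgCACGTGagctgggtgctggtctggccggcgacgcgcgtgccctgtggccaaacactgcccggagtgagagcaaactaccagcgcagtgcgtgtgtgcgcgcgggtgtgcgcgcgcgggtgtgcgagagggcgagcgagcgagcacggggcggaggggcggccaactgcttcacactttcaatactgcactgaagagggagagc
Nfil3: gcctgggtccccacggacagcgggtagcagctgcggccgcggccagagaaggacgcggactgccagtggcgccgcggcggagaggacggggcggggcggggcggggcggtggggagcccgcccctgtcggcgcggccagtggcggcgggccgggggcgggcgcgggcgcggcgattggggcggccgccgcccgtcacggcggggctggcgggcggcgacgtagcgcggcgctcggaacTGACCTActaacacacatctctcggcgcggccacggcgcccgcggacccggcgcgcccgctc
Known clock sites of Dbp in particular lie inside the gene, and such windows do not reach them.

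Libraries held between 11925055 and 20751348 reads on genes, as recovered from the TPM values. Replicate samples correlated at r = 0.919 to 0.982 across genes, and WT non-tumour 2 (r = 0.929 and 0.933) and WT tumour 3 (r = 0.919 and 0.921) stood apart from their groups. The 5 hepatocyte markers found summed to between 60043 and 93308 TPM in livers and between 173315 and 207776 TPM in tumours, so hepatocyte transcripts were abundant in all samples. In bulk tissue, fewer cells of a type and less RNA per cell cannot be told apart.

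**Figure D1:**
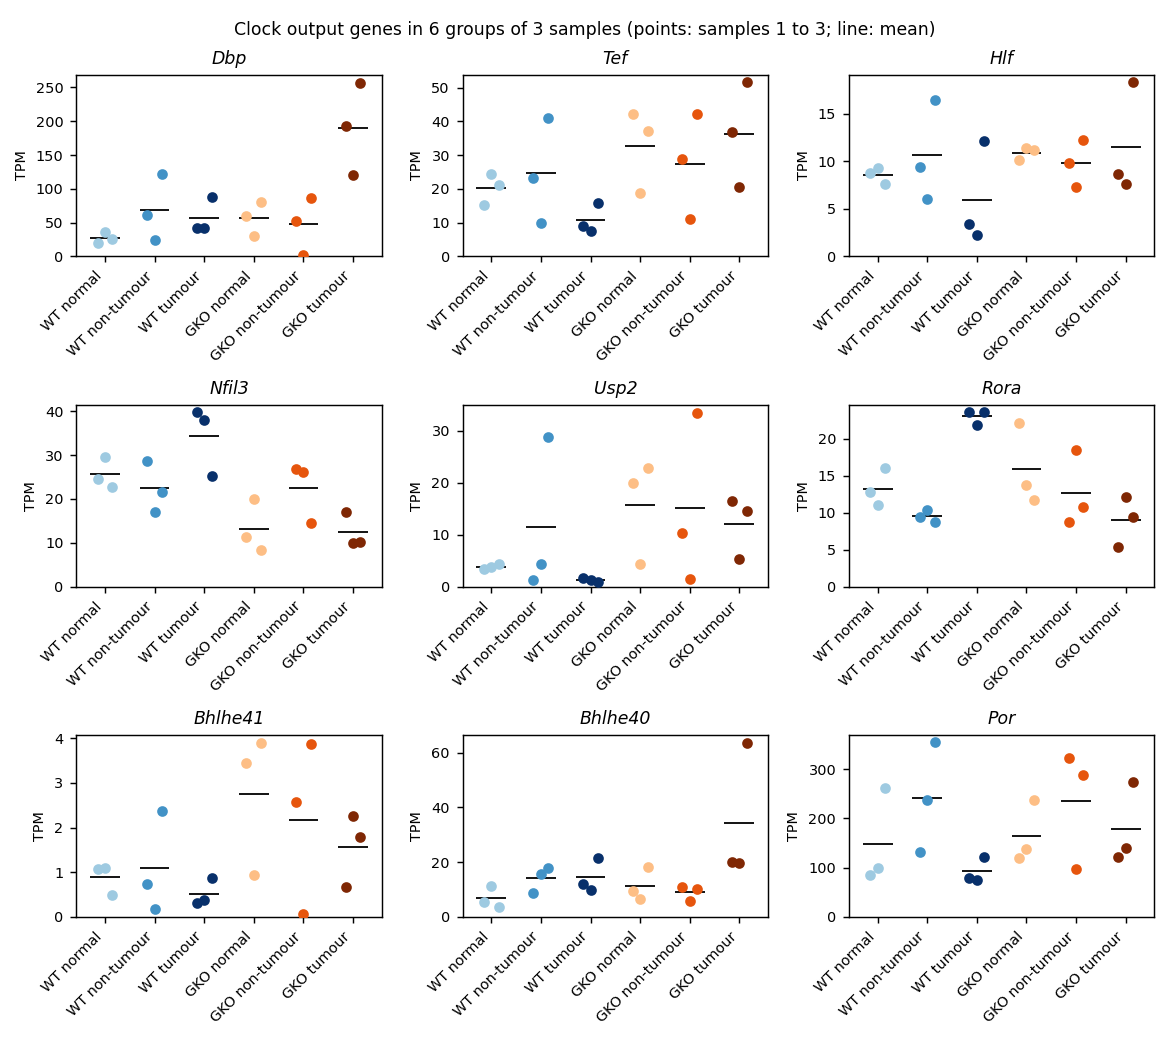
Each panel plots one gene in TPM (vertical axis, linear from 0) by group, with 1 point per sample and a line at the mean of 3 samples. Dbp in GKO tumours (120 to 256 TPM), Rora in WT tumours (21.8 to 23.7 TPM) and Usp2 in WT tumours (0.917 to 1.61 TPM) stand out from the other genotype's tumours.

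Dbp was the most abundant of the 3 PAR bZIP activators in most samples and varied most. Its group means in descending order were 190 ± 68.0 TPM (SD, n = 3) in GKO tumours, 69.0 ± 49.4 in WT non-tumour, 57.5 ± 26.2 in WT tumours, 57.1 ± 25.7 in GKO normal, 47.4 ± 42.6 in GKO non-tumour and 27.5 ± 8.02 in WT normal livers. Every pair of neighbours in this order had overlapping samples, GKO tumours included, since WT non-tumour 3 reached 122 TPM and GKO tumour 2 was at 120 TPM. GKO non-tumour 2 was the lowest of all 18 samples at 2.35 TPM, from 55 reads, whereas the same group's other samples were at 52.8 and 87.1 TPM.

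Tef, whose protein acts on the same D-box, averaged from 10.8 ± 4.32 TPM in WT tumours to 36.4 ± 15.6 TPM in GKO tumours (SD, n = 3). Between these lay WT normal (20.2 ± 4.72), WT non-tumour (24.8 ± 15.7), GKO non-tumour (27.4 ± 15.6) and GKO normal (32.7 ± 12.3), and no neighbours in this order were separated beyond their spread. Hlf was the least abundant of the 3 activators and the steadiest in untreated liver, at 8.55 ± 0.862 TPM in WT normal and 10.9 ± 0.682 TPM in GKO normal. Its other means were 5.94 ± 5.39 in WT tumours, 9.81 ± 2.48 in GKO non-tumour, 10.6 ± 5.31 in WT non-tumour and 11.5 ± 5.88 in GKO tumours.

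Nfil3, the repressor at the D-box, had its highest mean in WT tumours, 34.4 ± 7.95 TPM, and its lowest in GKO tumours, 12.3 ± 4.02 TPM. The summed TPM of Dbp, Tef and Hlf divided by that of Nfil3 was 1.38, 1.37 and 4.57 in the 3 WT tumours and 14.03, 15.01 and 32.1 in the 3 GKO tumours. Across the 12 livers without tumour this ratio ran from 0.797 in GKO non-tumour 2 to 15.6 in GKO normal 3, with a median of 3.15. Thus WT tumours lay within the range of the livers and 2 GKO tumours did too, while GKO tumour 3 lay above it. The ratio is given as a description, with no test.

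The first comparison asks whether loss of miR-181ab1 went with another level of clock output in tumours. None of the 9 genes was called between GKO and WT tumours, in a comparison where 0.0215% of 13964 genes were called at an adjusted p under 0.05 (limma, Benjamini-Hochberg adjustment across the table). Before adjustment 6 of 9 had a p under 0.05, against 8.87% of all genes, and the same 6 did not overlap between genotypes, against 14.7% of all genes. Dbp, Tef, Usp2 and Por were higher in GKO tumours and Nfil3 and Rora were lower. The median log2 fold change of the 9 genes was 1.03, and that of all genes tested was 0.09. The voom test on recovered reads also called none of them. Same-numbered tumours deviated together only weakly (r = 0.101 to 0.197), with 2 of 3 pairs correlating best with their own number, whose meaning the labels do not give. With the replicate number as a block, 9 of 9 had an unadjusted p under 0.05, against 10.8% of all genes. None was called (limma, adjusted p = 0.226 to 0.447). All 9 genes differed in one direction within each of the 3 same-numbered pairs, against 34.4% of all genes. For the 6 genes without overlap any pairing gives this, so only Hlf, Bhlhe40 and Bhlhe41 could have done otherwise. With 3 samples against 3, an exact two-sided permutation test of a single gene cannot go below p = 0.10.

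In WT tumours Dbp stood at 42.4, 42.4 and 87.8 TPM, compared with 193, 120 and 256 TPM under GKO. All GKO tumours were above all WT tumours, with a log2 fold change of 1.73 (SE 0.40, adjusted p = 0.369). Tef was at 9.13, 7.58 and 15.7 TPM in WT and 37.0, 20.5 and 51.7 TPM in GKO tumours, again without overlap (log2 fold change 1.63, SE 0.40). In both genotypes the sample highest for Dbp, WT tumour 3 or GKO tumour 3, was highest for Tef too. Hlf overlapped, at 3.42, 2.28 and 12.1 TPM against 8.67, 7.61 and 18.3 TPM, since WT tumour 3 exceeded 2 GKO tumours. Its log2 fold change was 1.03 (SE 0.56, adjusted p = 0.639).

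Nfil3 had 39.9, 38.0 and 25.3 TPM in WT tumours, against 17.0, 9.90 and 10.2 TPM in those of GKO mice. The direction was opposite to that of the activators, with a log2 fold change of -1.42 (SE 0.29, adjusted p = 0.326) and no overlap. Rora encodes a nuclear receptor that activates through ROREs, whose part in the level of Nfil3 was not tested. It stood at 23.6, 21.8 and 23.7 TPM in WT and at 5.31, 12.1 and 9.49 TPM in GKO tumours. WT tumours were close to each other and above every GKO tumour, with a log2 fold change of -1.34 (SE 0.29, adjusted p = 0.360).

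Usp2, a ubiquitin-specific protease whose transcript follows the clock in many tissues, had the largest difference of the 9 genes. Its levels were 1.61, 1.26 and 0.917 TPM in WT tumours, against 16.4, 5.33 and 14.6 TPM in those of GKO mice (log2 fold change 2.42, SE 0.40, adjusted p = 0.241). All fold changes are of TPM + 1, which understates changes of genes as low as Usp2 in WT tumours, where 39 to 64 reads lay behind each value. Por, the reductase that passes electrons to microsomal cytochrome P450 enzymes, was at 79.7, 75.3 and 122 TPM in WT tumours. In GKO tumours Por was at 122, 141 and 274 TPM, and the highest WT tumour and the lowest GKO tumour were at nearly the same level. Its log2 fold change of 0.89 (SE 0.36, adjusted p = 0.549) dropped to 0.54 without GKO tumour 3.

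The E-box repressors Bhlhe40 and Bhlhe41 overlapped between genotypes. Bhlhe40 was at 12.1, 9.70 and 21.6 TPM in WT and 19.9, 19.6 and 63.5 TPM in GKO tumours, with GKO tumour 3 alone far above the rest. The log2 fold change was 1.04 (SE 0.51, adjusted p = 0.599). Bhlhe41 was at 0.306, 0.380 and 0.860 TPM against 0.660, 2.26 and 1.78 TPM, a log2 fold change of 0.72 (SE 0.31, adjusted p = 0.560).

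Marker sums of other cell types also differed between these tumours. The summed level of 5 fibroblast markers was 33.9 to 55.2 TPM in WT and 62.9 to 152 TPM in GKO tumours, and that of 5 cholangiocyte markers was 22.2 to 53.8 TPM in WT but 37.6, 959 and 549 TPM in GKO tumours 1, 2 and 3. The cholangiocyte sum was mostly Spp1, which is also made by other cells, at 934 and 536 TPM in GKO tumours 2 and 3. The other 4 cholangiocyte markers summed to 11.3, 11.8 and 11.5 TPM in WT and 3.65, 25.04 and 12.5 TPM in GKO tumours, and Sox9 averaged 10.5 TPM in WT and 7.13 TPM in GKO tumours. Krt19 and Krt7 were at 0 in at least 1 WT tumour, and no other fibroblast or cholangiocyte marker was at 0 in a tumour. Macrophage sums overlapped (24.3 to 44.8 against 26.9 to 73.0 TPM). The part of these cells in the differences was not tested.

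Leaving out single tumours moved the adjusted p of the 6 genes widely and never past the threshold. Without WT tumour 3, which stood apart, the 4 higher and 2 lower genes had the same directions, with Dbp at a log2 fold change of 2.07 (adjusted p = 0.0606). The range for Dbp lay between 0.0606 and 0.987 and for Usp2 between 0.0879 and 0.821, with log2 fold changes between 1.48 and 2.07 and between 2.15 and 2.88, respectively.

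**Figure D2:**
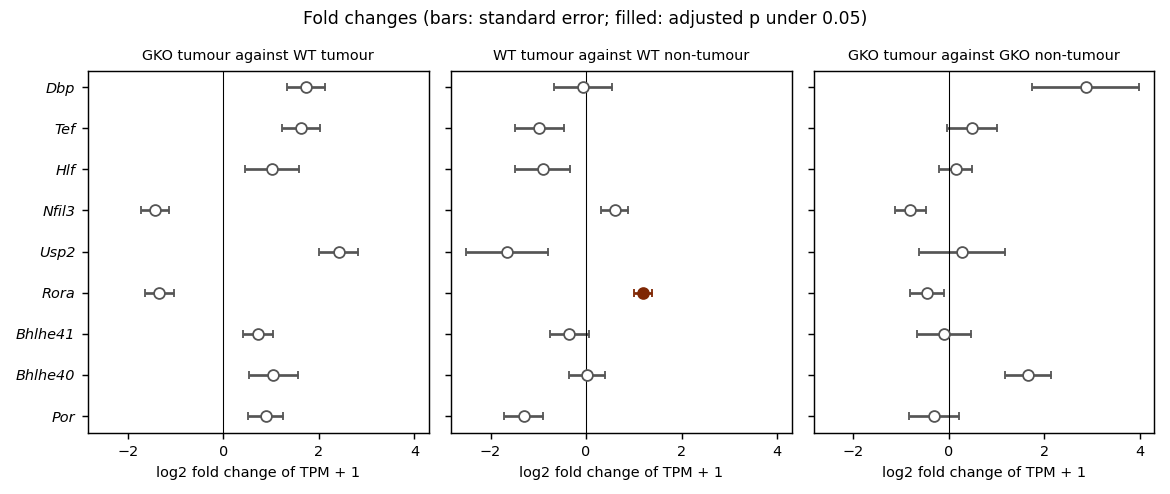
Log2 fold changes of TPM + 1 (horizontal axis) with their standard errors for the 9 genes in 3 comparisons of 3 against 3 samples. Only Rora in WT tumours against WT non-tumour liver (1.19) is filled, for an adjusted p under 0.05, while between tumours Usp2 (2.42) and Nfil3 (-1.42) mark both ends.

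The core clock was described with a list of 11 genes. None was called between GKO and WT tumours, 7 had an unadjusted p under 0.05 and the same number did not overlap, where 0.0215% of all genes were called, 8.87% had such a p and 14.7% did not overlap, with a list median of 0.77 on the log2 scale. Higher in GKO tumours were Per1 (1.17), Per2 (1.01), Per3 (1.77), Nr1d2 (1.02) and Ciart (2.30), all of them repressors of the clock loop. Lower were Arntl (-1.43), at 5.15, 2.82 and 1.69 TPM in WT against 0.288, 0.601 and 0.551 TPM in GKO tumours, and its relative Npas2 (-0.996). The adjusted p of the 11 genes ranged from 0.291 to 0.743. Arntl therefore stood with Nfil3 and Rora, and the Per genes stood with Dbp, Tef and Usp2.

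Of 9 genes known as controlled by PAR bZIP factors in liver, none was called between the tumours and 2 had an unadjusted p under 0.05, against 8.87% of all genes. Both were higher in GKO tumours: Cyp7a1, the rate-limiting enzyme of bile acid synthesis (log2 fold change 2.98, SE 0.81, adjusted p = 0.414), and Alas1, the rate-limiting enzyme of heme synthesis (1.03, SE 0.38, adjusted p = 0.528). Cyp7a1 was at 0.754, 0.758 and 0.679 TPM in WT and at 54.3, 8.29 and 3.94 TPM in GKO tumours.

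The second comparison asks how WT tumours differed from WT non-tumour liver. Rora was called and higher in tumours, at 23.6, 21.8 and 23.7 TPM against 9.44, 10.4 and 8.81 TPM, a log2 fold change of 1.19 (SE 0.18, adjusted p = 0.0196). It was the only 1 of the 9 genes called, in a comparison where 4.23% of 14003 genes were. The call was lost, at an unchanged direction, without WT non-tumour 1 (adjusted p = 0.0744), WT non-tumour 3 (0.102), WT tumour 1 (0.112) or WT tumour 2 (0.0949), with log2 fold changes between 1.14 and 1.25 when any sample was left out. It held without WT non-tumour 2 or WT tumour 3, the samples that stood apart. With the replicate number as a block the adjusted p was 0.0675.

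Por did not overlap either, at 133, 238 and 356 TPM in non-tumour liver and 79.7, 75.3 and 122 TPM in tumours, but was not called (log2 fold change -1.30, SE 0.40, adjusted p = 0.143). Thus 2 of 9 genes did not overlap, against 24.8% of all genes. Dbp differed by less than its spread (log2 fold change -0.06, SE 0.60), as WT non-tumour livers themselves ran from 23.9 to 122 TPM. Tef (-0.98, SE 0.51), Hlf (-0.91, SE 0.57) and Usp2 (-1.65, SE 0.86) were lower and Nfil3 (0.60, SE 0.28) higher in WT tumours with overlapping samples, at adjusted p of 0.304 to 0.435. The value of Usp2 rested on WT non-tumour 3, without which its log2 fold change was -0.61 (adjusted p = 0.589).

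None of the 11 core clock genes was called between WT tumours and WT non-tumour liver, and only Arntl had an unadjusted p under 0.05, against 19.9% of all genes (log2 fold change 1.10, SE 0.42, adjusted p = 0.216). Of the PAR bZIP target list, 8 of 9 genes were tested and 5 called, against 4.23% of all genes. Cyp7a1 (-3.68), Cyp2c37 (-4.20), Cyp2c50 (-5.30) and Cyp2c54 (-5.72) fell, and Cyp2a4 (6.84) rose, with adjusted p between 0.00149 and 0.0170. Cyp7a1 was no longer called without WT tumour 1 or 2 (adjusted p up to 0.0643), nor was Cyp2a4 without either of these or WT non-tumour 3 (up to 0.0774), and the 3 Cyp2c genes passed under all 12 alternatives. The last 3 of those that fell and Cyp2a4 belong to families of near-identical genes, among which reads can be split. The hepatocyte marker sum was higher in tumours (173315 to 188889 TPM) than in non-tumour livers (69384 to 89385 TPM). Of its 5 markers, Alb, Apoa1 and Serpina1a were higher in every tumour, with Alb at a mean of 105579 against 39487 TPM and Apoa1 of 55028 against 21868 TPM, while Ttr (12289 against 15363 TPM) and Cps1 (235 against 312 TPM) were lower on average and overlapped. The macrophage sum was 24.3 to 44.8 TPM against 39.3 to 193 TPM. Their part in these differences was not tested.

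The third comparison set GKO tumours against GKO non-tumour liver. None of the 9 genes was called, where 11.7% of 14092 genes were, 3 had an unadjusted p under 0.05 and 2 did not overlap, against 31.7% and 38.3% of all genes, and voom on recovered reads called none. Dbp was at 52.8, 2.35 and 87.1 TPM in non-tumour liver and 193, 120 and 256 TPM in tumours, a log2 fold change of 2.86 (SE 1.12, adjusted p = 0.130). Without GKO non-tumour 2 the log2 fold change was 1.40 (adjusted p = 0.0984).

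Bhlhe40 was at 10.8, 5.80 and 10.2 TPM in non-tumour liver and 19.9, 19.6 and 63.5 TPM in tumours, a log2 fold change of 1.65 (SE 0.48, adjusted p = 0.0645). Both genes were higher in every tumour than in every non-tumour liver of this genotype. With all 18 samples in one fit both passed, at adjusted p = 0.0366 for Dbp and 0.0305 for Bhlhe40, where 2627 of 13914 genes passed. With the replicate block Bhlhe40 passed (0.0446), where 1436 of 14092 genes did. Nfil3 was lower in tumours (-0.81, SE 0.32, adjusted p = 0.136) with overlap. The median log2 fold change of all genes tested was 0.20 here, and those of Dbp and Bhlhe40 were above it.

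Rora stood at 8.81, 18.5 and 10.8 TPM in GKO non-tumour liver, so that GKO tumours (5.31 to 12.1 TPM) were not above it (log2 fold change -0.46, SE 0.36, adjusted p = 0.399). None of the 10 core clock genes tested was called. From the PAR bZIP target list 4 of 9 were called, against 11.7% of all genes. Cyp2c37 (-5.22), Cyp2c50 (-4.64) and Cyp2c54 (-5.32) fell and Cyp2a4 (6.99) rose, with adjusted p between 0.00406 and 0.0233. Of these, Cyp2a4 passed under all 12 alternatives, while Cyp2c37, Cyp2c50 and Cyp2c54 each lost the call without GKO non-tumour 3 or GKO tumour 3 (adjusted p up to 0.0896), Cyp2c37 and Cyp2c50 also without GKO non-tumour 2, and Cyp2c50 without GKO non-tumour 1. Cyp7a1 did not pass (-0.80, SE 1.00, adjusted p = 0.606).

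Several marker sums moved with this comparison and did not overlap. The hepatocyte sum was 178272 to 207776 TPM in tumours and 60043 to 87367 TPM in non-tumour liver, and again Alb, Apoa1 and Serpina1a were higher in every tumour while Ttr and Cps1 overlapped. Lower in tumours were the sums of 5 macrophage markers (26.9 to 73.0 against 78.1 to 343 TPM), 5 T cell markers (1.92 to 3.11 against 3.53 to 6.88 TPM) and 4 B cell markers (3.21 to 8.35 against 10.9 to 19.5 TPM), with none of these markers at 0 in a sample. Their part in the differences was not tested.

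Whether the tumour against non-tumour change differed between genotypes was tested as an interaction over 12 samples. None of the 9 genes passed, against 0.0142% of 14106 genes, while 3 had an unadjusted p under 0.05, against 10.5%, and voom called none. Rora had the smallest unadjusted p of the 9 genes, with a difference of -1.65 in log2 fold change (SE 0.42, adjusted p = 0.417), followed by Nfil3 (-1.41, SE 0.44, adjusted p = 0.417) and Bhlhe40 (1.64, SE 0.66, adjusted p = 0.472). For Dbp the difference was 2.92 with an SE of 1.43, and 1.47 (SE 0.82) without GKO non-tumour 2. The pass of Rora in WT and its miss in GKO mice are therefore not shown to differ once adjusted over all genes.

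Livers without tumour were compared last. Between untreated GKO and WT livers none of the 9 genes was called, and no gene was called at all (0% of 13099), with voom at the same count. At an unadjusted p under 0.05 there were 4 of 9, against 3.96% of all genes. Nfil3 was lower without overlap, at 24.6, 29.5 and 22.7 TPM in WT and 11.2, 19.96 and 8.29 TPM in GKO livers (log2 fold change -0.99, SE 0.30). Usp2 stayed between 3.39 and 4.33 TPM in WT livers and was at 19.98, 4.33 and 22.8 TPM in GKO livers (1.52, SE 0.53), GKO normal 2 being at the WT level. The same sample kept Dbp (59.8, 30.1 and 81.3 TPM against 20.4, 36.2 and 25.9 TPM, 0.96, SE 0.37) and Bhlhe41 (3.44, 0.942 and 3.88 TPM against 1.07, 1.09 and 0.499 TPM, 0.90, SE 0.37) overlapping between genotypes. Hlf was higher in all GKO livers by 0.32 (SE 0.16), so that 2 genes did not overlap, against 7.95% of all genes. Every one of these had an adjusted p of 0.999.

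Beside these values, fibroblast (55.3 to 72.8 against 33.5 to 35.2 TPM), endothelial (42.2 to 48.6 against 23.9 to 25.0 TPM) and cholangiocyte (82.8 to 92.2 against 33.1 to 50.5 TPM) marker sums were higher in all GKO normal than in all WT normal livers, with no marker of these lists at 0. The cholangiocyte sum was mostly Spp1 (69.0 to 81.9 against 27.0 to 40.3 TPM). The other 4 cholangiocyte markers summed to 10.3, 13.9 and 8.01 TPM in GKO and 5.75, 6.04 and 10.2 TPM in WT livers, which overlapped. Sox9 averaged 4.42 TPM in GKO and 5.22 TPM in WT livers. Of the endothelial markers, Clec4g and Kdr were higher in every GKO liver, while Pecam1, Cdh5 and Stab2 overlapped. The part of these cells in the differences was not tested.

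Between GKO and WT non-tumour livers after DEN none of the 9 genes was called (0% of 13768 genes), none had an unadjusted p under 0.05 (5.80% of genes), none lacked overlap (13.2%), and voom called none. Dbp alone shows the width of the spread, at 61.3, 23.9 and 122 TPM in WT and 52.8, 2.35 and 87.1 TPM in GKO livers. Usp2 ran from 1.24 to 28.7 TPM in WT and from 1.48 to 33.4 TPM in GKO livers.

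Against untreated liver of the same genotype, WT non-tumour liver had no gene of the 9 called (0.00744% of 13440 genes, voom none) and 1 with an unadjusted p under 0.05, against 24.4% of all genes: Bhlhe40 (1.03, SE 0.41, adjusted p = 0.190). Rora was lower without overlap (-0.42, SE 0.19, adjusted p = 0.224), the only 1 of 9 against 33.9% of all genes, while the median log2 fold change of all genes tested was 0.32. GKO non-tumour liver had none called against GKO normal (0% of 13530 genes, voom none), none with an unadjusted p under 0.05 (5.20%) and none without overlap (8.73%).

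Because livers of one group differed so widely, the 9 genes were followed sample by sample. Over the 12 livers without tumour, on the log2(TPM + 1) scale, Dbp correlated with Tef at r = 0.829 (permutation p = 0.0002, adjusted over 8 genes 0.0016; rho = 0.881). Bhlhe41 followed Dbp at r = 0.778 (permutation test, p = 0.00061, adjusted 0.00244, rho = 0.748), Usp2 at 0.714 (p = 0.00344, adjusted 0.00917, rho = 0.692) and Hlf at 0.706 (p = 0.0135, adjusted 0.0271, rho = 0.839). Bhlhe40 (0.582, p = 0.0430, rho = 0.601) and Por (0.559, p = 0.0419, rho = 0.580) had an adjusted permutation p of 0.0573. Nfil3 (r = -0.391, p = 0.207, rho = -0.315) and Rora (r = -0.507, p = 0.0920, rho = -0.510) were negative and did not pass.

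The samples farthest from the median of Dbp were GKO non-tumour 2 and WT non-tumour 3. Without these 2 samples r was 0.868 for Tef, 0.809 for Bhlhe41, 0.694 for Hlf and 0.665 for Usp2, but 0.342 for Por and -0.129 for Rora. With each group of 3 set to its own mean, and samples permuted within groups, Tef (r = 0.905, adjusted exact p = 0.0123) and Bhlhe41 (r = 0.934, adjusted exact p = 0.0154) still passed, and Usp2 (0.790) and Hlf (0.712) had an adjusted exact p of 0.0617.

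In tumours the genotypes did not overlap in Dbp, so that a correlation over all 6 is not separate from genotype. Tef ranked the 6 tumours in the same order as Dbp. With each genotype set to its own mean, r was 0.972 for Tef, 0.918 for Hlf and 0.825 for Bhlhe40, each at the smallest p that 36 exact permutations allow (0.0278, adjusted 0.0741), with rho of 0.943, 0.943 and 0.771. Por followed at r = 0.773 (exact p = 0.139, adjusted 0.278), whereas Nfil3 (-0.385), Usp2 (0.402), Rora (-0.239) and Bhlhe41 (0.132) had weaker relations. WT tumour 3 and GKO tumour 3 were farthest from the median of Dbp once each genotype was set to its mean. Without this pair r was 0.938 for Tef but 0.403 for Hlf, -0.102 for Bhlhe40 and -0.809 for Por. The means were not taken again, so an offset between genotypes can enter, and WT tumours 1 and 2 were both at 42.4 TPM of Dbp. Such a check therefore cannot show which relations hold without that pair.

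**Figure D3:**
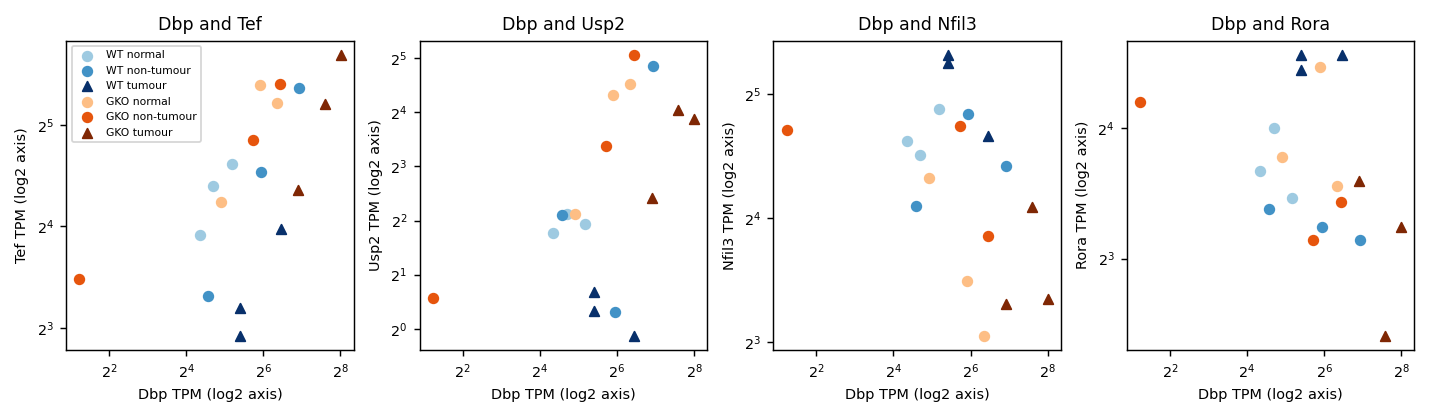
Dbp (horizontal) against Tef, Usp2, Nfil3 and Rora (vertical) in TPM on log2 axes, 1 point per sample, with circles for livers and triangles for tumours. Tef follows Dbp in both tissues (r = 0.829 in 12 livers), with tumours to the right of livers of like Tef level.

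Single livers show the pattern in named values. WT non-tumour 3 had 122 TPM of Dbp, 41.1 of Tef, 16.4 of Hlf and 28.7 of Usp2, with Per3 at 5.53, Ciart at 13.1 and Arntl at 0.175 TPM. GKO non-tumour 2 was at the other end, with 2.35 TPM of Dbp, 11.2 of Tef, 7.32 of Hlf and 1.48 of Usp2, with Per3 at 0.252, Ciart at 0.395 and Arntl at 1.90 TPM. Bhlhe41 in that liver rested on 3 reads (0.0570 TPM), which is at the limit of detection. GKO normal 3 had the lowest Arntl of all samples (0.0312 TPM) and the lowest Nfil3 (8.29 TPM), with Dbp at 81.3 TPM. These livers differ in genotype or treatment. Samples labelled alike also differed widely, with Dbp from 23.9 to 122 TPM in WT non-tumour and from 2.35 to 87.1 TPM in GKO non-tumour liver.

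**Figure D4:**
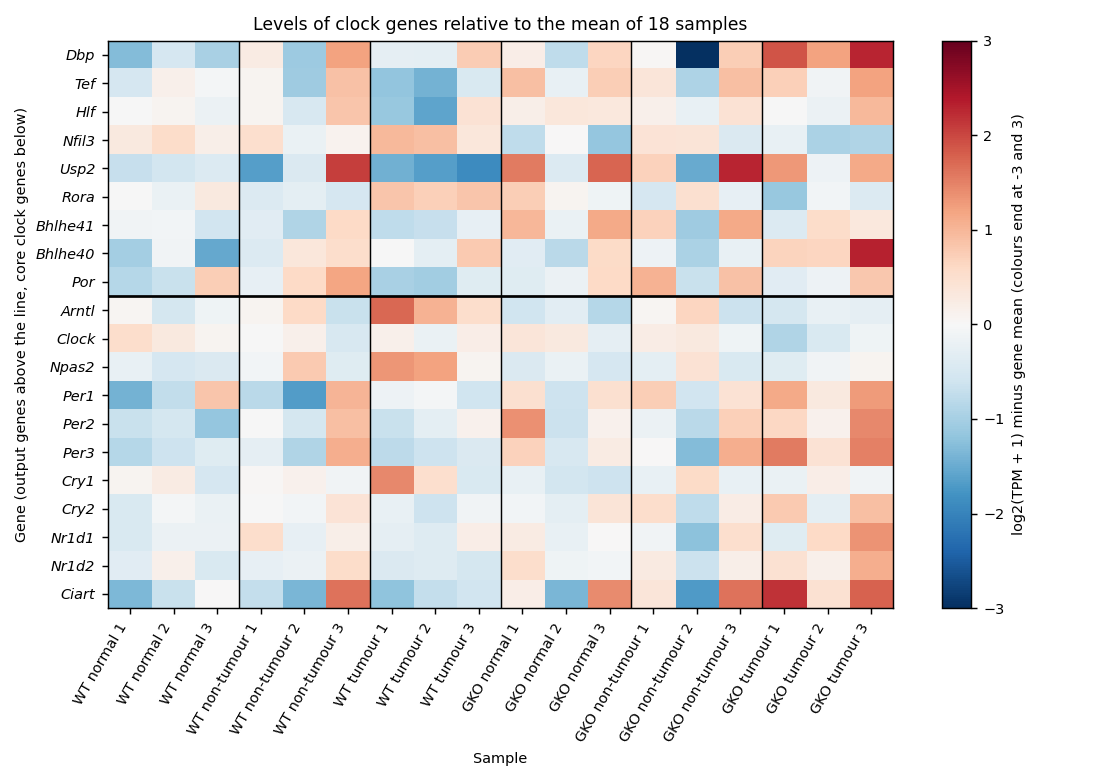
Rows are the 9 output genes and 11 core clock genes, columns the 18 samples, and colour is log2(TPM + 1) minus the mean of that gene over 18 samples, with colours ending at -3 and 3. GKO non-tumour 2 (Dbp 2.35 TPM) and WT non-tumour 3 (Dbp 122 TPM) are opposite in most rows, and GKO tumours are red for Dbp, Per3 and Ciart where WT tumours 1 and 2 are red for Arntl, Npas2, Nfil3 and Rora.

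Reads of overlapping genes on the opposite strand could enter these values, since no source used here says whether counting used strand. In GENCODE M21, exons of Sphk2 cover 539 bases (18.01%) of Dbp and exons of Gm43909 cover 1280 bases (19.0%) of Bhlhe41, while the shared part was at most 4.15% in Tef, Usp2, Rora and Bhlhe40. No exon of another gene covered Hlf, Nfil3 or Por.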

How the data were processed

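RNA-seq was performed on liver and liver tumours of 18 mouse samples, 3 in each of 6 groups set by the labels. The authors mapped reads to mm10 with STAR 2.7.3a and counted them per gene with featureCounts 2.0.0 (Subread), per the labels, and deposited TPM values; the annotation is not given in the sources used here. Whole reads were recovered from the TPM values and exonic lengths of GENCODE M21, with 98.0% to 98.7% of low values within 0.02 of a whole read. Total reads set the precision, and a count of 3 was taken as the floor. Genes averaging 0.5 TPM or more were tested as log2(TPM + 1) with limma 3.58.1 (lmFit, eBayes with trend) in R 4.3.3, with Benjamini-Hochberg adjustment over all genes tested and a threshold of 0.05. The limma fit was also run on simulated data for GKO against WT tumours, and its outcome is not given here. Correlations were tested with 100000 permutations for 12 livers and exactly for 6 tumours (scipy 1.17.1).

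One item of the core clock list is not reported here. The 9 genes and the lists of core clock genes, PAR bZIP targets and cell markers were chosen with earlier results of these data known. Named are all 9 genes, list genes that passed in a comparison, further list genes named after their values were seen, and the 5 genes most like Dbp, Tef, Hlf or Nfil3 by Pearson r over 18 samples. Between GKO and WT tumours, same-numbered samples deviated together weakly (r = 0.101 to 0.197 in 3 of 3 pairs), a hint from the data only. Of these pairs, 2 of 3 correlated best with their own number. A replicate block called none of the 9 genes there. Alternatives were another pseudocount, no filter, median centring, all 18 samples in one fit, the replicate block, each sample left out and, added after the data were seen, voom on recovered reads.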

Additional observations from a re-analysis of the deposited data

How the results depend on the processing

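Of 51 fold changes given, 50 kept their direction under every alternative run. The exception was Dbp in WT tumours against WT non-tumour liver, which lay between -0.67 and 0.49 when single samples were left out, reaching 0.49, 0.11 and 0.11 without WT non-tumour 3, WT tumour 1 or WT tumour 2. Median centring, no filter, a pseudocount of 0.1 and voom changed no call of the 9 genes, and no filter took 4 calls of list genes (adjusted p of 0.0513 to 0.0701). In WT tumours against WT non-tumour liver, 0 genes were called with the replicate block and 0 to 1 when single samples were left out, the gene being Rora. In GKO tumours against GKO non-tumour liver, 2 were called with all 18 samples in one fit, where 2627 of 13914 genes were. With the replicate block 1 was called there, where 1436 of 14092 genes were. The cause was not tested. The block changed no other call of the 9 genes. In comparisons other than that of the tumours, same-numbered samples deviated together at r = -0.315 to 0.249 and share only a number; each correlated best with its own number in 3 of 3 pairs for GKO tumours against GKO non-tumour liver, a hint from the data only.

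In 12 livers, the correlation of Hlf with Dbp no longer passed with median centring (r = 0.553) or group means removed (0.712), nor did that of Usp2 with group means removed (0.790). Over 6 tumours, where r also carries genotype, group means removed took below the threshold Tef (0.972, from 0.993), Hlf (0.918), Nfil3 (-0.385), Usp2 (0.402), Bhlhe40 (0.825) and Por (0.773), and a pseudocount of 0.1 took Hlf (0.872), Nfil3 (-0.877) and Usp2 (0.873). Rora passed with median centring (-0.870). Bhlhe41 in GKO non-tumour 2 was at the floor of 3 reads, and its fold changes depend on the pseudocount.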

Other observations

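Beyond the fixed lists, the genes whose log2(TPM + 1) was most like a D-box factor were sought among 11897 genes over 18 samples that share groups and libraries, as a description. Tef was most like Upp2, a liver uridine phosphorylase (r = 0.921), then Per3 (0.859), Nmrk1 (0.859), Sox12 (0.852) and Pcsk4 (0.847). Per3 was also second for Dbp (0.837), after Gpr146 (0.843) and before Igfbp4 (0.833), Tspan4 (0.830) and Eef2k (0.829).

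Hlf had other neighbours: Ppara, the nuclear receptor of fatty acid oxidation (r = 0.933), Slc27a2, a fatty acid transporter and acyl-CoA synthetase (0.922), Bnip3 (0.914), Cyp4a32 (0.882) and C1ra (0.879). Nfil3 had lower values throughout, with Leo1 (0.701), the pseudogene Gm4540 (0.690), Slc45a3 (0.684), Arntl (0.671) and Crem (0.667). Among the 9 genes themselves, Tef and Usp2 had the highest r over 18 samples (0.847), and Usp2 and Nfil3 the lowest (-0.686).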
